A study of Mus musculus with 2 samples.

Results

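The secreted Wnt antagonists are proteins that act outside the cell to limit Wnt signalling, and 10 of their genes were examined here among 32285 genes listed in the count tables. The genes were taken by name: 5 of the secreted frizzled-related family (Sfrp1, Sfrp2, Sfrp4, Sfrp5 and Frzb, which is also called Sfrp3), 3 Dickkopf genes (Dkk1, Dkk2 and Dkk3), Wif1 and Notum. All 10 were listed, 9 had at least 1 transcript in a cell that passed quality control, 6 had at least 100, and Dkk1 had none.

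Wnt proteins are lipid-modified ligands that bind Frizzled and LRP5 or LRP6 receptors. Sfrp proteins and Wif1 bind the Wnt ligand itself, Dkk1 and Dkk2 bind the LRP co-receptor, and Notum is a secreted enzyme that removes the lipid. Dkk3 is grouped with the Dickkopf family by sequence and is not a typical LRP antagonist. Porcn is the enzyme of the endoplasmic reticulum that adds the lipid, so a cell without it cannot release active Wnt. Notum and several other inhibitors are themselves known transcriptional targets of the Wnt pathway.

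The study compared orthotopic KPC pancreatic tumours, grown from implanted mouse pancreatic cancer cells, in 2 host genotypes. Control hosts were littermates labelled Porcn fl/fl, which carry the floxed allele without Cre. Knockout hosts were Csf1r-Cre;Porcn fl/fl, in which Cre is driven by the promoter of the macrophage receptor gene Csf1r. Both alleles belong to the host and not to the implanted line. Tumours were taken on day 21 after implantation, digested with collagenase and DNase, and the cells of 5 mice were pooled into 1 droplet library per genotype (10x Genomics 3′ chemistry). The age of the mice is not given in the sources used here. With 1 library per genotype there is no replicate check, and no test between genotypes was possible. Every interval below is an exact 95% interval for counting error only. It treats each UMI as an independent count and leaves out the variation between mice and between cells.

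The control library held 11516 kept cells with a median of 12167.5 unique molecular identifiers (UMIs, each standing for 1 captured transcript), and the knockout library held 10467 kept cells with a median of 10109 UMIs. The libraries shared 46 barcodes, 38 of them among kept cells. Porcn itself was sparse in the monocyte/macrophage-like class, with 7 UMIs in 341 control cells and 4 UMIs in 433 knockout cells, and reads at the 3′ end can still come from a recombined allele, so this count does not check the genotype. T-like cells made up 1.67% of the control library and 15.6% of the knockout library. Fibroblast-like cells made up 5.55% and 7.01%. Acinar-like cells made up 0.269% and 3.12%, and B-like cells 0.0695% and 4.25%. The part of these differences in tissue make-up in the fibroblast-like shares and levels was not tested. In pooled tissue, a change in a gene over all cells can come from the number of cells of a class or from the transcripts per cell, and both are given below.

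The antagonist transcripts came mainly from 2 sources. Fibroblast-like cells, which carried all 11 markers of their list, held 71.1% of all antagonist UMIs among control cells (70.4 to 71.7%) and 81.7% among knockout cells (81.1 to 82.3%). Clusters with epithelial or tumour markers held most of the remainder, 27.7% in the control and 16.6% in the knockout library. These clusters are pooled below, because 4 of them could not be named from their markers. The unnamed clusters made up 23.5% of control cells and 22.3% of knockout cells.

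**Figure D1:**
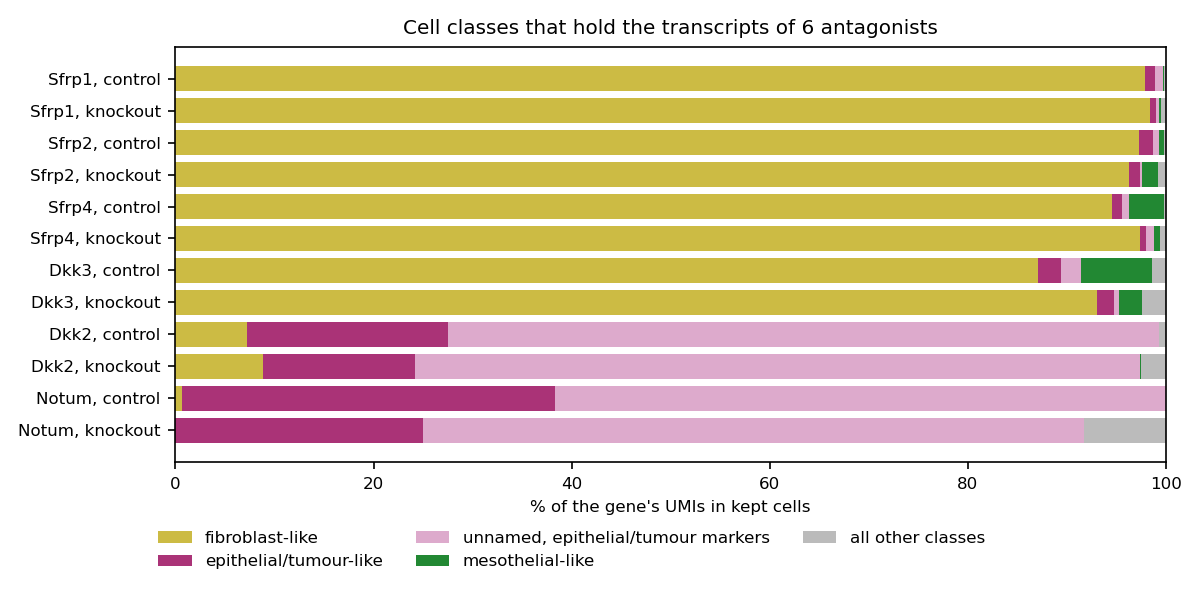
Share of each antagonist's UMIs in kept cells (x axis, percent) held by 5 groups of cells, with 1 bar per gene and library. Sfrp1, Sfrp2, Sfrp4 and Dkk3 lie mostly in fibroblast-like cells, while Dkk2 and Notum lie mostly in clusters with epithelial or tumour markers.

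Most Sfrp1, Sfrp2, Sfrp4 and Dkk3 UMIs lay in fibroblast-like cells. These cells held 97.9% of Sfrp1 UMIs in the control and 98.4% in the knockout library, and 97.3% and 96.3% of Sfrp2 UMIs. Their shares of Sfrp4 UMIs were 94.6% and 97.4%, and of Dkk3 UMIs 87.1% and 93.0%. Mesothelial-like cells, which line the pancreas surface, held 7.16% and 2.36% of Dkk3 UMIs. In counts per 1000000 UMIs of the class (CPM), their Dkk3 stood at 89.8 (67.9 to 117) in 45 control cells and 72.2 in 31 knockout cells. The fibroblast-like levels of Dkk3 were 69.5 (64.4 to 75.0) and 120.4 CPM, so the control level was no lower in mesothelial-like cells. Mesothelial-like cells also had Sfrp4 at 103 and 26.3 CPM and Sfrp2 at 61.0 and 213 CPM.

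Most Dkk2 and Notum UMIs lay in the tumour compartment. Tumour-marked clusters held 92.1% of Dkk2 UMIs in the control and 88.6% in the knockout library, and 99.3% and 91.7% of Notum UMIs. Fibroblast-like cells held 7.22% and 8.88% of Dkk2 UMIs. In CPM, however, Dkk2 was higher in fibroblast-like cells, at 39.5 (35.7 to 43.7) in the control and 34.7 (30.5 to 39.2) in the knockout library. In tumour-marked cells it stood at 32.8 (31.9 to 33.8) and 25.3 (24.3 to 26.3). Tumour-marked cells held 89.1% of all control UMIs and 76.3% of all knockout UMIs.

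Transcripts of these genes in immune cells were few. Lymphocytes (T-, NK-, B- and plasma-like cells), taken here for comparison, had Sfrp1 at 1.67 CPM in the control and 1.86 in the knockout library. Sfrp2 stood there at 2.34 and 1.09 CPM. The Sfrp1 level in tumour-marked cells, 0.452 and 0.629 CPM, and the Sfrp2 level, 0.964 and 0.548, lay below those lymphocyte values and were read as background. In the control library all 5 lymphocyte Sfrp1 UMIs and 5 of 7 Sfrp2 UMIs lay in plasma-like cells. Of these 135 cells, 82 were in a cluster with S100a9, Cxcl2 and Lyz2 among its leading genes, so the class may be mixed. T-like cells alone had Sfrp1 at 0 and 2.20 CPM and Sfrp2 at 2.99 and 1.32. For control Sfrp1 the comparison thus rests on plasma-like cells. Dkk2 in lymphocytes stood at 6.34 and 1.32 CPM, with most of the control UMIs (18 of 19) in plasma-like cells. Monocyte/macrophage-like cells, the class in which the Cre is meant to act, held 8 Dkk2 UMIs in the control and 1 in the knockout library, 2 and 5 Sfrp2 UMIs, 0 and 1 Sfrp1 UMIs, and no Notum UMI.

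**Figure D2:**
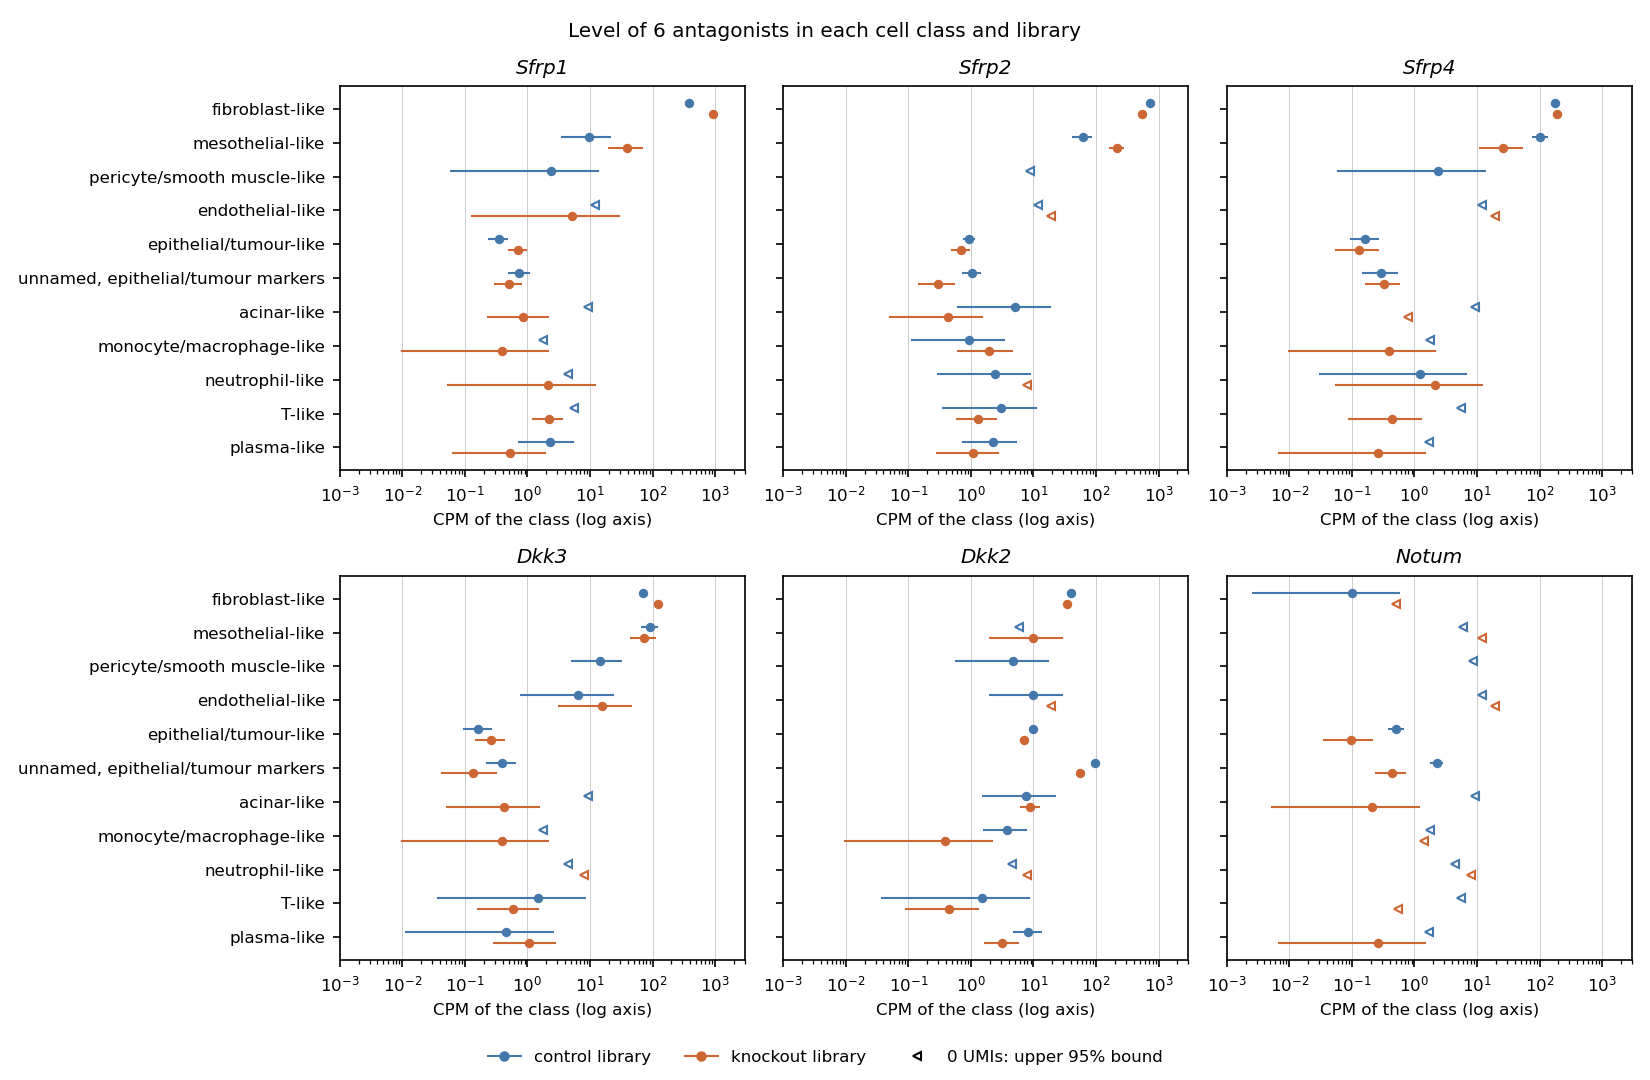
Level of 6 antagonists (x axis, CPM of the class, log scale) in 11 cell classes for the control and knockout library. Points are levels, bars are exact 95% Poisson intervals, open triangles mark the upper bound where no UMI was counted, and classes with fewer than 10 cells in a library are not drawn. For Sfrp1, Sfrp2 and Sfrp4 the fibroblast-like class is the highest in both libraries.

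Most Sfrp2 UMIs lay in fibroblast-like cells and most Dkk2 UMIs in tumour-marked cells, and both genes are on the same chromosome. Their promoters are shown because they were the most abundant antagonists of those compartments with a RefSeq promoter entry. Of the 10 genes, 6 had an entry. Each line gives the 250 bases before the transcription start on the plus strand of GRCm38.p6, written 5′ to 3′, at chr3:83766071-83766320 for Sfrp2 and chr3:132085042-132085291 for Dkk2, with CpG dinucleotides in capitals.
Sfrp2: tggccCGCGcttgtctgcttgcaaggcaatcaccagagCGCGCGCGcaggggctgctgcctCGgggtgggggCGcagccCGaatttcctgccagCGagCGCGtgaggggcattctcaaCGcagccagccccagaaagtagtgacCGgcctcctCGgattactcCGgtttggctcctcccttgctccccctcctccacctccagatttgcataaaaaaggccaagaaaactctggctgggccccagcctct
Dkk2: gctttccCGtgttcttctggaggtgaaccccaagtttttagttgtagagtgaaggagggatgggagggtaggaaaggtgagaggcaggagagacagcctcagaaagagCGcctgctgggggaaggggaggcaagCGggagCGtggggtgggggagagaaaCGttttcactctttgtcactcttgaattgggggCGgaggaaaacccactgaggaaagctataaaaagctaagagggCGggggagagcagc
The Sfrp2 window held 16 CpG and 63.6% G or C, and the Dkk2 window 7 CpG and 55.6% G or C, against medians of 6 CpG and 52.4% over 32841 mouse promoter windows of the same length. CpG-rich promoters of Sfrp and Dkk genes are known sites of DNA methylation in human cancers, but methylation was not measured here. The core letters bound by the Wnt effector TCF, CTTTGA, with TCAAAG as the same site on the other strand, were in neither window, and 13.8% of all windows held them.

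Sfrp1, on chromosome 8 (GRCm38, 23411502 to 23449632, plus strand), was the antagonist that differed most upward between the libraries among those with over 1000 UMIs. Over all kept cells it had 3836 UMIs in the control and 6897 in the knockout library, or 22.7 and 53.4 CPM, a knockout-to-control ratio of 2.35 (2.26 to 2.44). Within fibroblast-like cells it stood at 383 CPM in the control and 941 in the knockout library, a ratio of 2.45 (2.36 to 2.56). After every cell was thinned to 1000 UMIs, 24.6% of control fibroblast-like cells (21.3 to 28.2%) and 42.8% of knockout cells (39.2 to 46.5%) had an Sfrp1 UMI. Before thinning the shares were 66.4% and 81.2%, at median depths of 12808 and 9109.5 UMIs, so the knockout cells had the higher share at the lower depth. In lymphocytes the thinned share was 0 of 357 control cells, with an upper limit of 1.03%, and 0.279% of knockout cells.

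Sfrp2, on chromosome 3 (83766321 to 83774316, plus strand), went the other way. In fibroblast-like cells it fell from 738 to 548 CPM, a ratio of 0.742, and its thinned share of cells with a UMI was 34.4% in the control and 29.2% in the knockout library. Sfrp1 and Sfrp2 thereby exchanged places as the most abundant antagonist of the fibroblast-like class. This order is one of UMI counts without a correction for gene length. Whether reads in introns were counted was not checked.

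Sfrp4 stood at 174 CPM in control and 190.0 in knockout fibroblast-like cells, a ratio of 1.09 (1.02 to 1.18). Its direction was not stable: the ratio was 0.967 when per-cell levels were averaged. It was 1.32 with the clusters described below given the same weight in both libraries, and 1.46 without clusters F1 and F3. Dkk3 stood at 69.5 and 120.4 CPM, a ratio of 1.73 (1.56 to 1.92), and its thinned share of cells with a UMI was 5.52% and 10.6%. With the clusters described below given the same weight in both libraries, the Dkk3 ratio was 1.16. Dkk2 stood at 39.5 and 34.7 CPM, with a ratio of 0.877 and an interval of 0.745 to 1.03 that includes no difference. All 10 genes summed to 1406 CPM in the control and 1835 in the knockout class, a ratio of 1.30 (1.27 to 1.34).

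Of the 5 antagonists with at least 20 UMIs in fibroblast-like cells, 1 (Sfrp1) was at least 2-fold higher in the knockout library and none was 2-fold lower. Across all 13469 genes with that many UMIs in the class, 8.09% were at least 2-fold higher and 6.88% at least 2-fold lower. The median log2 ratio was 0.13 over the 5 antagonists and 0.09 over all those genes. The Sfrp1 call depends on how cells are combined: the ratio was 1.97 when per-cell levels were averaged and 1.60 when the clusters described below were given the same weight in both libraries.

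**Figure D3:**
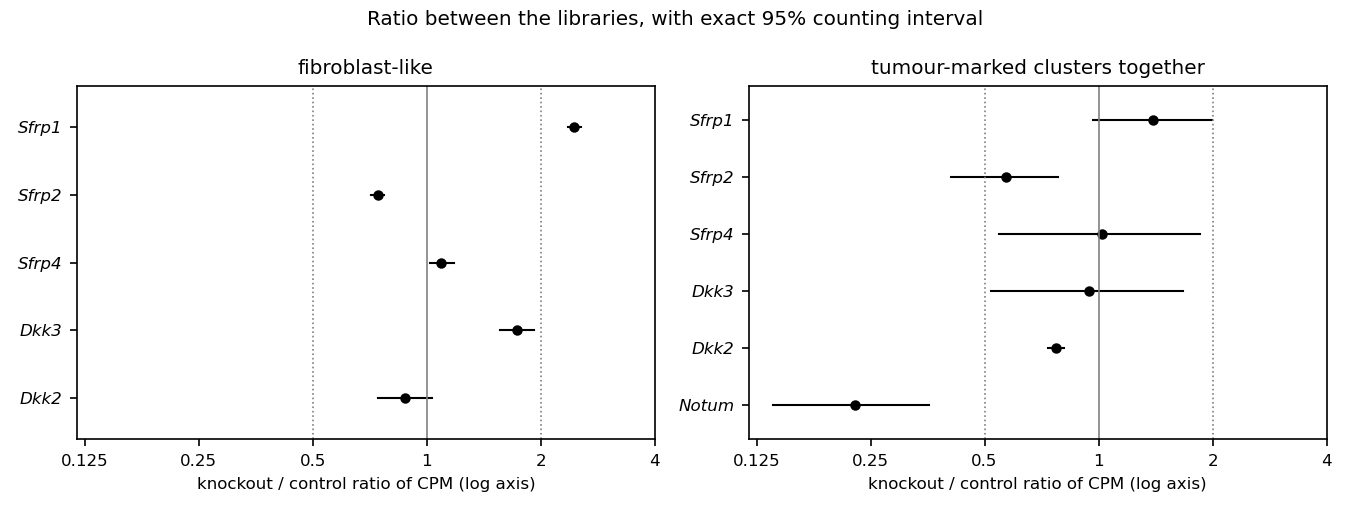
Knockout-to-control ratio of CPM (x axis, log scale) for antagonists with at least 20 UMIs in fibroblast-like cells and in the tumour-marked clusters together. Points are ratios, bars are exact 95% counting intervals, the solid line marks a ratio of 1 and the dotted lines a 2-fold difference. Sfrp1 in fibroblast-like cells (2.45) and Notum in tumour-marked clusters (0.227) lie beyond the dotted lines.

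The fibroblast-like class was not of 1 kind, and its make-up differed between the libraries. Clustered on genes other than the 10 antagonists, it fell into 9 clusters, F1 to F9. Cluster F2, led by Clca3a2, Col24a1 and Saa3, had 173 control and 27 knockout cells. Cluster F3, led by Apod and Prg4, had 111 control cells and 1 knockout cell. Cluster F6, led by Chrm3, Sned1 and Rspo3, had 75 and 225 cells, cluster F7, led by Cpxm2 and Lama1, had 63 and 220, and cluster F4, led by Sema3c and Bmp6, had 32 and 115. Since each genotype is 1 library, a cluster mostly from 1 library cannot be told apart from a feature of that library. Beside these shifts, the summed level of 5 antigen-presenting fibroblast markers was 3489.6 CPM in control and 358 in knockout fibroblast-like cells. The sum of 11 inflammatory or adventitial-type markers was 7569 and 12466, and that of 10 myofibroblast markers 1970.2 and 1438. The part of these differences in the antagonist levels was not tested. The 5 antigen-presenting markers also summed to 2537 and 3574 CPM in named epithelial/tumour-like cells and to 11229 and 4149.6 in mesothelial-like cells. Csf1r in fibroblast-like cells stood at 10.4 CPM in the control and 2.08 in the knockout library. The part of transcripts from other cells in the fibroblast-like marker sum was not tested.

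Sfrp1 was highest in F5 and F7 in the control library and in F7 and F2 in the knockout library. In F7 it stood at 1011 CPM in the control and 1592 in the knockout library, a ratio of 1.58 (1.46 to 1.70). F7 held 21.2% of the Sfrp1 UMIs of control fibroblast-like cells and 59.5% of those of knockout cells, while its share of cells was 9.86% and 30.0%. In F2 the 173 control cells stood at 187 CPM and the 27 knockout cells at 1479, with the 458 knockout UMIs in 19 cells. The ratio was 7.92 (6.99 to 8.97), an interval that leaves out the spread between those cells. Beside that ratio, the 10 myofibroblast markers summed to 1292 CPM in the control and 4069.9 in the knockout cells of F2, and the 5 antigen-presenting markers to 7179 and 963, and their part in it was not tested. In F4 the order was the opposite, with 592 in the control and 170.3 in the knockout library, a ratio of 0.288 (0.234 to 0.354). In F5, led by Hp and Cxcl12, Sfrp1 stood at 1142 and 954, and in F6 at 656 and 644. Sfrp1 was thus above its control level in some clusters, below it in others and within counting error of it in F6. Of the 7 clusters with at least 10 cells in each library, 4 had an interval above a ratio of 1, 2 below, and 1 included 1.

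Sfrp2 was highest in F3, where the 111 control cells had it at 1335 CPM. Its lowest control level was in F1, with 26 control cells and no knockout cell, at 17.4 CPM. The F3 cells also had the highest control level of Sfrp4 (481) and one of the highest of Dkk2 (121). F2 held 38.5% of the Sfrp2 UMIs of control fibroblast-like cells and F3 27.4%. In F5 the Sfrp2 levels were 974 and 978, in F6 272 and 265, and in F9, a cluster led by cell-cycle genes, 428 and 429. In these 3 clusters the ratio intervals included 1. In F2 Sfrp2 stood at 913 and 536, in F4 at 551 and 781, and in F7 at 592 and 654. With clusters given the same weight in both libraries the Sfrp2 ratio of the class was 0.869 in place of 0.742.

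Cluster F8 was led by tumour genes (Lgals2, Krt18 and Krt19) and its 11 epithelial markers summed to 3192 CPM in the control and 2104 in the knockout library, with 74 and 25 cells. Over the whole fibroblast-like class that sum was 740.1 and 217. Without F8 the Sfrp1 ratio of the class was 2.42 and the ratio of the 10 antagonists together was 1.27. Without F1 and F3, which had fewer than 10 knockout cells each, the Sfrp1 ratio was 2.22, and the Dkk2 ratio turned from 0.877 to 1.27. The Dkk2 ratio was 0.634 with clusters weighted alike and 0.722 when cells were named one by one from markers. The F3 cells of the control library held 46.5% of its fibroblast Dkk2 UMIs.

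Dkk2 had a ratio interval below 1 in 3 of the 5 fibroblast clusters with enough UMIs to compare. It stood at 134 and 44.3 CPM in F6, a ratio of 0.330 (0.241 to 0.453). In F4 it stood at 79.1 and 43.7, and in F5 at 29.2 and 10.8. In F7 and F8 the ratio intervals included 1. Dkk3 was highest in F7, at 163 in the control and 216 in the knockout library, and F7 held 63.2% of the Dkk3 UMIs of knockout fibroblast-like cells. In F6 the Dkk3 ratio was 0.643 (0.474 to 0.882), and in F4 it was 0.662 with an interval that includes 1.

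**Figure D4:**
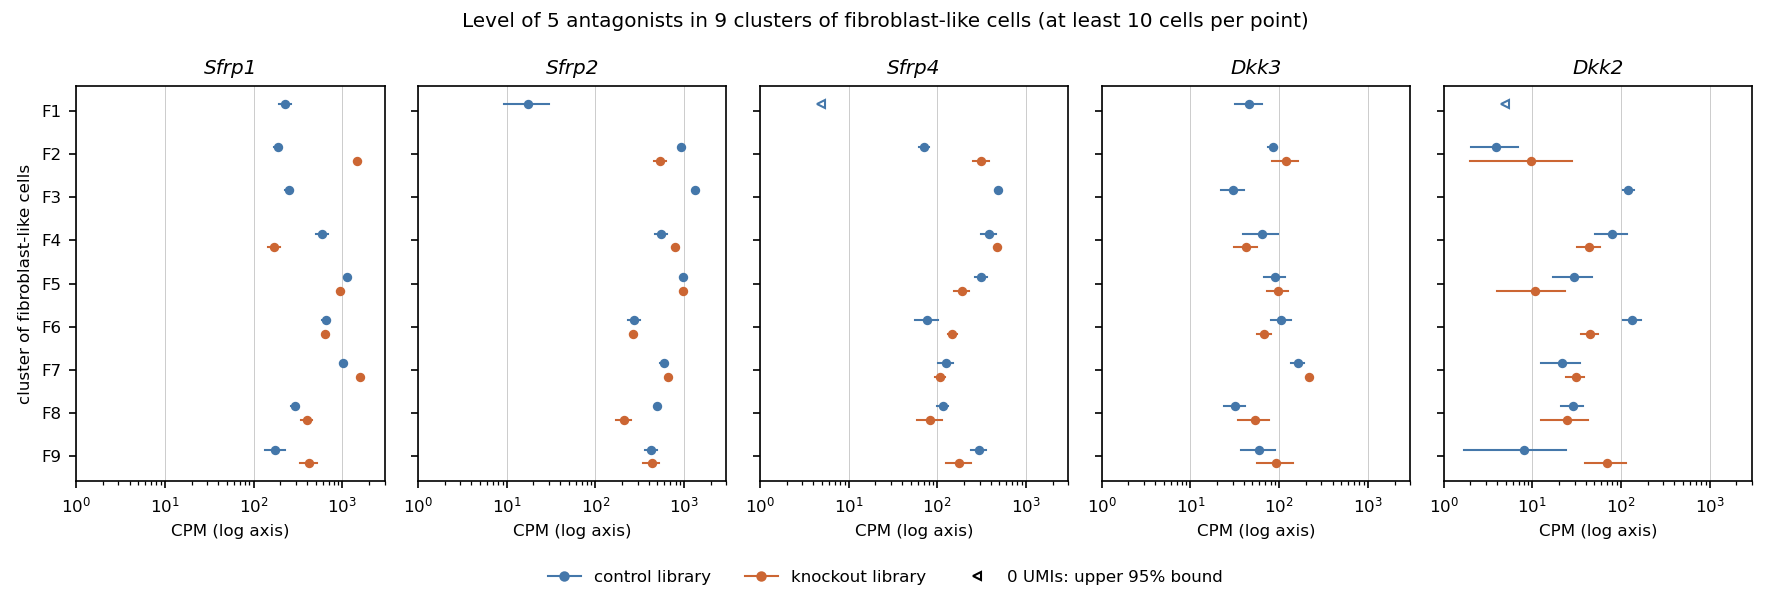
Level of 5 antagonists (x axis, CPM, log scale) in the 9 clusters of fibroblast-like cells, for each library with at least 10 cells in the cluster. Points are levels, bars are exact 95% Poisson intervals, and open triangles mark the upper bound at 0 UMIs. The libraries lie far apart for Sfrp1 in F2 and F4 and close together for Sfrp1 and Sfrp2 in F6.

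After thinning, fibroblast-like cells with Sfrp1 were not richer in Sfrp2 than those without it. Of control fibroblast-like cells with an Sfrp1 UMI, 32.1% also had an Sfrp2 UMI, against 35.1% of those without. The values in the knockout library were 28.5% and 29.7%. Without thinning they were 69.6% against 69.8% in the control and 65.4% against 55.8% in the knockout library. After thinning, Sfrp4 was seen more often beside Sfrp2, at 17.0% against 12.0% in the control and 18.3% against 8.91% in the knockout library. Beside Sfrp1 it was seen more often in the control, at 18.6% against 12.1%, and less often in the knockout library, at 8.01% against 14.4%. These are descriptions of cells within 1 library each. A small number of cells carried much of the transcript: the 43 control cells and the 72 knockout cells with the most Sfrp1 UMIs held at least 50% of all of them.

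Notum, on chromosome 11 (120653788 to 120661175, minus strand), had the lowest ratio of the antagonists over all kept cells. The control library had 149 UMIs in 115 cells and the knockout library 24 UMIs in 18 cells. These are 0.883 and 0.186 CPM, a ratio of 0.210 (0.131 to 0.325). In the tumour-marked clusters together the counts were 148 and 22, or 0.984 and 0.223 CPM, a ratio of 0.227 (0.138 to 0.356). The transcript was rare in both libraries, and at 1000 UMIs per cell it was seen in 5 of 2695 control cells of the unnamed tumour-marked clusters and in 2 of 2317 knockout cells, so the difference was not detectable at that depth.

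Dkk2, on chromosome 3 (132085292 to 132180304, plus strand), had 5363 UMIs in the control and 2815 in the knockout library, or 31.8 and 21.8 CPM, a ratio of 0.685. In the tumour-marked clusters together it stood at 32.8 and 25.3 CPM, a ratio of 0.770 (0.733 to 0.808). In the named epithelial/tumour-like clusters alone it stood at 9.92 and 7.04, a ratio of 0.710, but that value turns to between 1.09 and 1.94 under 5 other choices of cells and clusters. Under those choices between 5.35% and 67.2% of control cells of the Dkk2-rich cluster a6, described below, and between 11.9% and 80.6% of its knockout cells entered the named class. For cluster a7, also described below, these shares ranged from 2.18% to 98.3% and from 1.19% to 98.7%. Naming each cell from its own markers put 81.0% and 83.0% of a6 in the class, and the Dkk2 ratio was then 0.817. In the unnamed clusters it stood at 95.1 and 55.4, a ratio of 0.582. Over all tumour-marked clusters the ratio stayed between 0.750 and 0.911 under the 8 alternatives run.

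Of the 6 antagonists with at least 20 UMIs in the tumour-marked clusters together, none was 2-fold higher and 1 (Notum) was 2-fold lower in the knockout library, against 4.95% and 2.69% of 17418 genes. In the named clusters alone, 1 was higher (Sfrp1, 38 and 43 UMIs, at a CPM below that of the shallower lymphocytes) and 1 lower (Notum), against 5.57% and 2.10% of 16576 genes. In the unnamed clusters, none was higher and 3 were lower (Notum, and Sfrp2 with 42 and 11 UMIs and Dkk3 with 16 and 5), against 2.16% and 4.96% of 14783 genes. Beside the low Sfrp2 and Dkk3 values, the summed level of 11 fibroblast markers in the unnamed cluster a6 was 311 CPM in the control and 70.7 in the knockout library. The part of these fibroblast transcripts in the Sfrp2 and Dkk3 ratios was not tested. In the plasma-like class Dkk2 was the only antagonist with 20 UMIs and was lower, at 18 and 12 UMIs, where 23.2% of 11125 genes were at least 2-fold lower.

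Dkk2 and Notum were concentrated in cluster a6, led by Csmd1, Hmga2, Ank and Tnnt2, with 1066 control and 253 knockout cells. Dkk2 was itself among the 10 leading genes of a6, although the antagonists were not used to form the clusters. In a6 Dkk2 stood at 182 CPM in the control and 133 in the knockout library, a ratio of 0.731 (0.663 to 0.803). Notum had 88 UMIs (5.22 CPM) and 9 UMIs (2.40 CPM) there, a ratio of 0.460 (0.204 to 0.914). Cluster a6 held 62.2% of the Dkk2 UMIs of tumour-marked control cells, and 499 of the 2493 of knockout cells. For Notum these shares were 59.5% and 40.9%. Cluster a6 also made up 11.3% of control and 4.38% of knockout tumour-marked cells, so the level in the cluster and the size of the cluster were both lower in the knockout library.

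Cluster a7, led by Tnnt2, interferon-response genes such as Ifit3, and Grem1, took the opposite place. It made up 11.6% of control and 26.2% of knockout tumour-marked cells, and Dkk2 stood there at 37.0 and 53.7 CPM, a ratio of 1.45 (1.33 to 1.59). It held 14.5% of tumour Dkk2 UMIs in the control and 60.0% in the knockout library. In the cycling cluster a14, led by Ube2c and Cenpf, Dkk2 stood at 28.6 and 5.33, a ratio of 0.187 (0.138 to 0.248), and Notum at 22 UMIs and 1 UMI. In a5, led by Cxcl15 and Gbp2, Dkk2 stood at 5.51 and 10.1. In the mucin-rich cluster a0, led by Muc5ac, it was low in both, at 1.79 and 1.62. Lymphocytes stood at 6.34 and 1.32, with the control value mostly from plasma-like cells, and T-like cells alone at 1.50 and 0.440. Of the 10 tumour-marked clusters with enough Dkk2 UMIs, 4 had an interval below a ratio of 1, 2 above, and 4 included 1.

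Within cluster a6, cells with a Notum UMI more often also had a Dkk2 UMI. In the control library 76.5% of the 68 cells with Notum had Dkk2, against 48.6% of those without. The cells with Notum were also the deeper ones, at a median of 18101 UMIs against 12422.5, and the part of depth in this overlap was not tested. In the knockout library 6 cells of a6 had Notum.

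**Figure D5:**
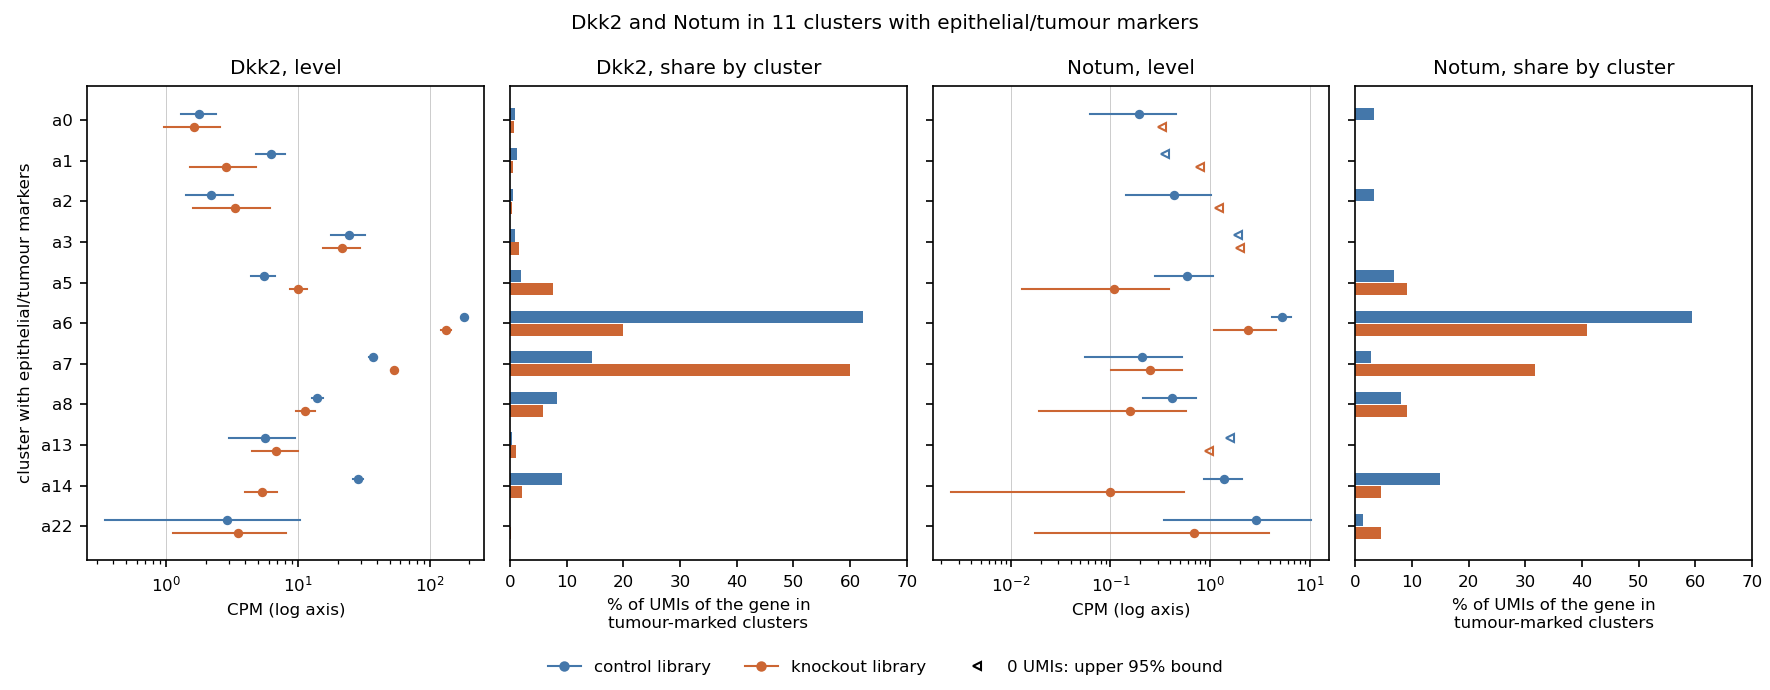
Dkk2 and Notum in 11 clusters with epithelial or tumour markers, each with the level (CPM, log axis, exact 95% Poisson interval, open triangle for the upper bound at 0 UMIs) and the share of the gene's tumour UMIs held by each cluster (percent, bars from 0). Cluster a6 holds 62.2% of tumour Dkk2 UMIs in the control library, and cluster a7 holds 60.0% in the knockout library.

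The other 4 antagonists were close to the limit of detection. Dkk1 had no UMI in any barcode of either library, which allows a level of up to 0.0178 CPM in the kept control cells and 0.0232 in the knockout cells by the limit of 3 counts of the total. The upper bounds of the exact 95% Poisson interval are 0.0219 and 0.0285 CPM. Sfrp5 had 10 UMIs in the control and 5 in the knockout library, and Wif1 had 8 and 6, with 6 of the 8 in a single cell. Frzb had 5 UMIs in 5 control cells, all fibroblast-like, and 17 UMIs in 11 knockout cells, a ratio of 4.44 with an interval of 1.57 to 15.4. Of those 17 UMIs, 10 lay in 4 cells of cluster a22, a small cluster of 41 control and 51 knockout cells led by Pkhd1, Ttr and Tff2. The same cluster held 4 of the 10 control Sfrp5 UMIs and 3 of the 5 knockout ones. Averaged per cell, the Frzb ratio was 0.853, so no direction is read from it.

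Other genes of the pathway, from lists chosen by function, were counted by the same rule in fibroblast-like cells. In that class 8.09% of 13469 genes were at least 2-fold higher and 6.88% at least 2-fold lower. Of 7 other Wnt inhibitors, none was 2-fold higher and 1 was lower: Shisa3, at 7.86 and 1.66 CPM. Shisa3 holds Frizzled receptors inside the cell, so it is unlike the secreted members of that list. Of 13 receptors, 2 were higher, Fzd8 (4.19 and 10.1) and Fzd4 (18.6 and 40.6), and none lower. Of 5 glypicans, cell-surface proteoglycans that bind Wnt, Gpc3 (77.5 and 212) and Gpc6 (229.6 and 559) were higher and Gpc1 (22.7 and 11.2) lower. Of 10 Wnt feedback and target genes, Lgr5 (5.92 and 17.1) was higher, and Ccnd1 (91.7 and 27.5), Cd44 (216 and 83.5) and Tcf7 (2.45 and 0.971) were lower. Of 10 Wnt ligands, Wnt7b was lower (4.90 and 0.832) and none higher. Porcn was higher in fibroblast-like cells, at 6.64 and 15.4 CPM. The median log2 ratio was 0.52 over the receptors, 0.70 over the glypicans and -0.13 over the target genes, beside 0.09 over all genes. These values include cluster F8, and the epithelial markers of the class summed to 740.1 CPM in the control and 217 in the knockout library. Without F8, Wnt7b had 6 and 4 UMIs, too few to be counted, and Ccnd1 stood at 20.2 and 9.97 CPM, still past 2-fold. Fzd4 (ratio 1.98) and Gpc1 (ratio 0.499) were then no longer past 2-fold with the pseudocount, while Fzd5 (2.77 and 6.40 CPM), named here after its values were seen, was. Shisa3, Fzd8, Gpc3, Gpc6, Lgr5, Cd44, Tcf7 and Porcn were past 2-fold in the same direction without F8. The share over all genes was not computed without F8.

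In the tumour-marked clusters together, where 4.95% of genes were 2-fold higher and 2.69% lower, the same lists were counted. Of 10 Wnt ligands, Wnt4 was lower, at 43.1 CPM in the control library and a ratio of 0.347 (0.328 to 0.368). Of 11 target genes, Tnfrsf19 (0.306 and 1.01) and Sp5 (0.0665 and 0.183, from 10 and 18 UMIs) were higher and Rnf43 (8.39 and 3.68) was lower. Rnf43 encodes a ligase that removes Frizzled from the cell surface. Of 5 glypicans, Gpc5 (0.180 and 0.497) was higher and Gpc1 (12.9 and 6.11) lower. The named and the unnamed clusters differed in the target genes that passed 2-fold, and the difference was not tested. In the unnamed clusters, where most Notum UMIs lay and 4.96% of all genes were lower, 4 of 9 target genes were lower, among them Lgr5 (1.09 and 0.134), Rnf43 (5.63 and 1.50) and Axin2 (3.09 and 1.10), and none was higher. In the named clusters, where 5.57% of all genes were higher, 3 of 11 target genes were higher and none was lower. They were Lef1 (0.0273 and 0.326 CPM, 3 and 20 UMIs), Tnfrsf19 (a ratio of 3.98, 45 and 100 UMIs) and Sp5 (a ratio of 3.58, 8 and 16 UMIs). T-like cells, which were 1.67% and 15.6% of the libraries, had Lef1 at 77.8 and 190.2 CPM. The part of T cell transcripts in the tumour Lef1 values was not tested. Members of other lists were also lower in the unnamed clusters: the ligands Wnt4 (35.3 and 9.27) and Wnt9a (1.28 and 0.349) of 8, the receptors Fzd2 (11.7 and 4.73) and Fzd4 (1.41 and 0.645) of 12, and the glypicans Gpc4 (2.30 and 0.161) and Gpc1 (29.3 and 9.35) of 5. Gpc5 was higher there (0.346 and 1.10). None of the 6 other Wnt inhibitors and none of the 14 receptors passed 2-fold in the tumour-marked clusters together.

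The genes whose levels followed each antagonist most closely over 19 class-by-library points from 12 classes are given as a description, since the points share 2 libraries and differ in depth. For Sfrp1 they were Ogn, Cpxm1 and Mfap5, each with a Pearson r of 0.971 on log2(CPM + 1). For Sfrp2 they were Fndc1 (0.968), Lrrn2 (0.960) and Ackr1 (0.959), and for Sfrp4 Apod (0.959), Serpina3c (0.958) and Gdpd2 (0.957). For Dkk3 they were Maob and Srpx (both 0.960) and BC034090 (0.952). For Dkk2 they were Prnp (0.929), Greb1l (0.905) and Efna2 (0.904), and for Notum Gm29865 (0.942), Selenbp2 (0.899) and Il11 (0.883). Notum reached no more than 0.510 CPM in any named class, so its r values rest on very low levels. Most Sfrp1, Sfrp2, Sfrp4 and Dkk3 UMIs lay in fibroblast-like cells, so their r values largely reflect that class. Among the antagonists themselves, r was 0.882 between Sfrp1 and Sfrp2 and 0.929 between Sfrp1 and Sfrp4. It was 0.579 between Sfrp1 and Dkk2, and -0.0867 between Sfrp1 and Notum.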

How the data were processed

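Raw UMI counts per gene and cell were used as deposited by the authors, 1 filtered 10x matrix per library; the matrix headers name Cell Ranger 8.0.0, whereas the submitters' processing notes name version 3.1.3 and mm10. Total depth was 173934025 UMIs in the control and 137527647 in the knockout library. A cell needed 500 detected genes and no more than 15% of its UMIs from mitochondrial genes, which 11664 and 10808 cells met. Scrublet marked 148 (1.27%) and 341 (3.16%) of them as doublets, which were removed. Cells were clustered with scanpy 1.11.5 (2000 variable genes without the 10 antagonists, 30 components, Leiden resolution 1), leukocytes and stromal cells once more by themselves, and clusters were named from marker lists; a cluster was left unnamed when its markers or depth did not allow a name. The second stromal round, the scoring of markers and the fibroblast resolution of 0.5 were chosen after the data, the antagonists' values included, had been seen. The members and gene lists were chosen with earlier results of these data known.

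UMIs were summed per class and library and divided by all UMIs of the class (counts per 1000000, CPM). Sums carry exact Poisson intervals, shares Clopper-Pearson intervals and ratios exact conditional intervals, all at 95% and for counting error only. Genes with at least 20 UMIs over both libraries, in classes of at least 100 cells per library, were counted as past 2-fold with a pseudocount of 1 UMI. The genes named are the 10 antagonists, up to 3 genes per list and direction with the largest ratios, and the 3 genes most like each antagonist with at least 100 UMIs. The counting script was checked on simulated data. Gene positions are from GENCODE M21 and promoters from RefSeq (GRCm38.p6). Alternatives changed the cell filter, doublets, resolution, naming, level, influence of single cells, make-up, minimum, threshold and pseudocount.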

Additional observations from a re-analysis of the deposited data

Results flagged for a closer look

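Some antagonists had a ratio above 1 in one class or cluster and below 1 in another, with counting intervals that do not include 1. The 6 pairs given are the highest and the lowest such ratio of each gene in each set of cells, and other clusters lie between them. The difference between the members of each pair was not tested, because each genotype is 1 library. Dkk3 had a knockout-to-control ratio of 1.73 (1.56 to 1.92) in fibroblast-like cells and 0.340 (0.0973 to 0.971) in the unnamed clusters with tumour markers, the latter from 16 and 5 UMIs. Among fibroblast-like clusters, the Sfrp1 ratio was 7.92 in F2 and 0.288 in F4. The Sfrp2 ratio was 1.42 in F4 and 0.422 in F8, and the Sfrp4 ratio was 4.35 in F2 and 0.605 in F9. The Dkk3 ratio was 1.67 in F8 (1.01 to 2.69) and 0.643 in F6. Among tumour-marked clusters, the Dkk2 ratio was 1.84 in a5 and 0.187 in a14. The F2 values rest on 27 knockout cells and the F8 values on 25, and the F9 value on 16 control and 20 knockout cells. The 96 Sfrp4 UMIs of F2 in the knockout library lay in 8 cells. The share of F2 cells with an Sfrp4 UMI was 27.7% in the control and 29.6% in the knockout library.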

How the results depend on the processing

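In all, 283 alternative values were computed, for 7 summary results and 24 ratios of single genes. The 1 antagonist past 2-fold in fibroblast-like cells became 0 with per-cell means and with clusters weighted alike, and 2 with no minimum of UMIs and at 1.5-fold. The 2 past 2-fold in the named epithelial/tumour-like class became 1 with the loose filter, at resolution 0.5 and with cells named from their own markers. They also became 1 with the unnamed clusters added, 0 with doublets kept, 4 with no minimum and 3 at 1.5-fold. Without the 1% of cells richest in the gene the count was 0, but that step removed nearly all cells with these genes. Of 6747 control and 3446 knockout cells, 35 and 39 held Sfrp1 and 42 and 6 held Notum. This 0 therefore does not check the calls. The summed ratio over all kept cells moved from 1.09 to 1.27 with per-cell means and 1.12 without the richest cells. In fibroblast-like cells it moved from 1.30 to 1.27 (loose filter), 1.19 (doublets kept), 1.20 (per-cell means), 1.22 (clusters weighted alike), 1.27 (without F8) and 1.36 (without F1 and F3).

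In the named epithelial/tumour-like class the sum reversed from 0.760 to 1.39 (loose), 1.45 (strict), 1.35 (resolution 0.5) and 1.76 (resolution 2), and moved to 0.965 (doublets kept), 0.990 (per-cell means) and 0.879 (without the richest cells). Dkk2 reversed there from 0.710 to 1.47 (loose), 1.56 (strict), 1.09 (doublets kept), 1.42 (resolution 0.5) and 1.94 (resolution 2). The fibroblast share of antagonist UMIs moved from 71.1% to 70.2% (loose) and 72.2% (per-cell means) in the control, and from 81.7% to 80.9% (own markers) and 86.1% (per-cell means) in the knockout library. Sfrp4 in fibroblast-like cells reversed to 0.983 with doublets kept and 0.967 with per-cell means, and Frzb over all cells to 0.853. Sfrp4 moved the other way to 1.32 with clusters weighted alike and 1.46 without F1 and F3. Notum in tumour-marked clusters stayed between 0.222 and 0.358 under 7 alternatives. Removing the cells richest in Notum is not among them, because it left too few UMIs. Alternatives chosen after seeing the data were the tumour-marked clusters together, the unnamed clusters added, the removal of F8 (for the pathway lists too) or of F1 and F3, and the count with clusters weighted alike. Where not stated above, the cause was not tested.

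No paired analysis was possible because each genotype is 1 library pooled from 5 mice. Depth limits Notum, Frzb, Sfrp5, Wif1 and Dkk1, and 1 library per genotype limits every comparison: variation between mice cannot be told apart from genotype.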
